A study of Rattus norvegicus with 6 samples.

Results

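The nuclear-encoded genes of the mitochondrial respiratory chain and the ATP synthase were compared between diabetic and normal rat diaphragm, complex by complex. A gene was included if the platform annotation gave one of its probe sets to that gene alone and its symbol was that of a complex I subunit (Nduf genes), a complex III subunit (Uqcr genes, Cyc1 or Cycs), a complex IV subunit (Cox4 to Cox8 genes) or an ATP synthase gene (Atp5 genes, complex V). This gave 76 genes of 10411 named genes on the array, measured by 80 probe sets. There were 36 genes of complex I, 8 of complex III, 16 of complex IV and 16 of complex V. All but Cox6b2, the testis form of a complex IV subunit, had a mean signal above the filter on dim probe sets, so 75 of the 76 were tested among 7080 named genes. The mitochondrial genome also encodes subunits of these complexes, but 0 probe sets were annotated to a mitochondrially encoded gene.

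Each of the 6 arrays was hybridized with RNA from the left costal hemidiaphragm of 1 male Wistar rat. The 3 diabetic rats had received streptozotocin, which destroys pancreatic beta cells, at 60 mg/kg in citrate buffer by intraperitoneal injection at 8 weeks of age, and the 3 normal rats had received buffer alone. Tissue was taken 4 weeks later from anesthetized animals after an overnight fast, and neither group was given insulin or an oral hypoglycemic drug. The model is thus an untreated chemical insulin deficiency of 1 duration in males of 1 strain, and the normal rats control for the injection and the fast.

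Complex I takes electrons from NADH and passes them to ubiquinone through its N module (NADH oxidation) and Q module (ubiquinone reduction), while its membrane arm, the P module, pumps protons. Complex III passes the electrons on to cytochrome c, complex IV (cytochrome c oxidase) gives them to oxygen, and complex V uses the proton gradient to make ATP. The diaphragm works continuously and is rich in mitochondria. Several complex IV subunits exist as a ubiquitous form and a form made mainly in heart and skeletal muscle, such as Cox6a2, Cox7a1 and Cox8b.

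The promoters below are shown so that the muscle forms can be read beside other subunits: they are the 3 muscle forms of complex IV, the ubiquitous form Cox8a, and Ndufb8, the complex I gene with the largest decrease. Each runs from 250 bases before to 50 bases after the gene start in RefSeq (build GRCr8), and this window was found for 67 of the 76 genes. Capitals mark, in the first 3, the muscle E-box CAGCTG and the MEF2 motif, and in the last 2 the NRF1 core TGCGCA and the ETS core CCGGAA; both strands were searched.
Cox7a1 (chr1:94568966-94569265, plus strand): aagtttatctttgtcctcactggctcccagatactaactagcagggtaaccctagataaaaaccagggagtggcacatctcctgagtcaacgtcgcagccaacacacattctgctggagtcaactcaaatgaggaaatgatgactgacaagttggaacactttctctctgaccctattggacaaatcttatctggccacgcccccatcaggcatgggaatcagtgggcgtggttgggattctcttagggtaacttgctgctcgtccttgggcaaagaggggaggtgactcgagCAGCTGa
Cox6a2 (chr1:192219667-192219966, minus strand): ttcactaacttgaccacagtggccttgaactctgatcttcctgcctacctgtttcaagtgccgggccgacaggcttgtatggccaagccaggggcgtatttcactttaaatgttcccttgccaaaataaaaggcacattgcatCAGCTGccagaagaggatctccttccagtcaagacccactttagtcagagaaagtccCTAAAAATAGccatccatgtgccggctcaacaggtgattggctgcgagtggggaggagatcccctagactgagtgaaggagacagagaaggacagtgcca
Cox8b (chr1:205408224-205408523, minus strand): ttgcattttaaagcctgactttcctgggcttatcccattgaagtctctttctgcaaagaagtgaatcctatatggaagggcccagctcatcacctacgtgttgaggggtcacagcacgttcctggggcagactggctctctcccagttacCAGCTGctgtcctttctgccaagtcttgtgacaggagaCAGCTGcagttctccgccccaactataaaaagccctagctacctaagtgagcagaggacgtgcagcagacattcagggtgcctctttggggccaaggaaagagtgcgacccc
Cox8a (chr1:213833574-213833873, minus strand): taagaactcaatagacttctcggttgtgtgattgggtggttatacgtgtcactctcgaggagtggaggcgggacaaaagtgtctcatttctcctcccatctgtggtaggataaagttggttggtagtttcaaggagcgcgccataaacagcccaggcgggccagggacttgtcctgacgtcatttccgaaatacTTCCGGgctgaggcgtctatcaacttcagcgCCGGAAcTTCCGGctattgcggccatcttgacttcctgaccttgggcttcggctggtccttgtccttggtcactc
Ndufb8 (chr1:253362887-253363186, minus strand): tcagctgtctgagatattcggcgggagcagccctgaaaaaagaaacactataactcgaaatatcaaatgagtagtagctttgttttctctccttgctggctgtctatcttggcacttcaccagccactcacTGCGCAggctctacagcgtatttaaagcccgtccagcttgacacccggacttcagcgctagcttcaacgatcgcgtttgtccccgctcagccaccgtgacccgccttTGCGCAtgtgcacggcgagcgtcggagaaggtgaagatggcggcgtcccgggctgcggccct

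CAGCTG was present in all 3 muscle forms, in 8 of the 64 other promoters of the set (12.5%) and in 15.1% of 33469 RefSeq rat promoters, and the MEF2 motif was present in Cox6a2 alone of the 67 promoters and in 1.87% of all. The single CAGCTG of Cox7a1 lay 43 to 48 bases after the gene start, while those of Cox6a2 and Cox8b lay before it. Ndufb8 also held 1 CAGCTG, left in lower case above. TGCGCA was found in 25.4% of the 67 promoters against 7.24% of all, and CCGGAA in 37.3% against 15.0%; none of the 3 muscle forms held either, but 17 of the 67 promoters held TGCGCA and 25 held CCGGAA, so most others lacked each motif too. The ratio of observed to expected CpG dinucleotides had a median of 0.81 over the 67 promoters, 0.26 over the 3 muscle forms and 0.39 over all promoters. These are matches of letters and not measurements of binding.

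Respiratory chain genes tended toward lower signals in diabetic diaphragm, most of all those of complex I. At an adjusted p under 0.05, 12 of the 75 genes were lower (16%) and 0 were higher by limma, against 3.55% lower and 3.46% higher of all 7080 named genes tested. At an unadjusted p under 0.05 the counts were 42 and 1, against 11.9% and 12.8% of all named genes. Of the 12, 10 belonged to complex I, 1 to complex III (Uqcrq) and 1 to complex IV (Cox7a1). The log2 fold change, diabetic minus normal, was below 0 for 73 of the 75 genes, and the 2 exceptions were Atp5if1, the inhibitor of the ATP synthase, and Cox7a2l, a factor that helps join complexes III and IV into supercomplexes. The median was -0.40, with a middle range of -0.54 to -0.26, while the median of all tested genes was 0.01. A 1.5-fold or greater reduction in mean signal was found for 16 genes, of which 13 belonged to complex I, which held 36 of the 75. The share of all named genes with such a reduction was not taken, so this count has no reference.

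All 3 diabetic signals lay below all 3 normal signals for 49 of the 75 genes (65.3%), against 14.9% of all named genes tested. The opposite arrangement was found for 1 gene, Atp5if1, against 15.9% of all genes. Because most of these genes are bright on the array, they were also set beside 361 other named genes with a mean signal of at least 4000. Of those, 7.76% were lower, 4.99% were higher, 24.1% had every diabetic signal below every normal one, and the median log2 fold change was -0.0048. Of the 60 respiratory chain genes as bright as that, 9 were lower (15.0%), 39 had no overlap in that direction (65.0%) and the median was -0.38. Samples of whole muscle cannot tell fewer muscle cells apart from less RNA per cell.

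The number of respiratory chain genes passing the test changed when 1 array was left out. It was 1 without normal rat 1 and 1 without diabetic rat 2, and that gene was Cox7a1 each time. It was 5 without normal rat 2, 7 without normal rat 3, 13 without diabetic rat 1 and 5 without diabetic rat 3, while 72 or 73 of the 75 log2 fold changes stayed below 0 in each case. These fits had fewer arrays for every gene. Over all probe sets, 179 to 235 were lower in them, against 335 with all 6 arrays and 16 added to each signal. How much of the change came from the particular rat was not tested. With all 6 arrays and an adjusted p under 0.1, the counts were 26 lower and 1 higher of the 75, against 6.31% lower and 6.19% higher of all named genes.

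**Figure D1:**
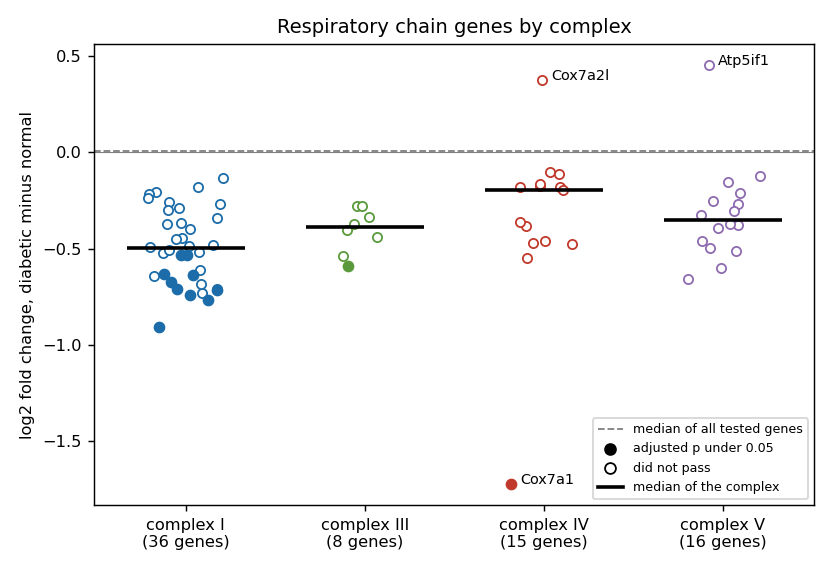
Log2 fold change (diabetic minus normal) of each of the 75 tested genes, by complex, with filled points for an adjusted p under 0.05, bars for the median of each complex and a dashed line for the median of all tested genes. The medians were -0.50 for complex I, -0.39 for complex III, -0.19 for complex IV and -0.35 for complex V, and only Cox7a2l and Atp5if1 lay above 0.

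In complex I, the entry point for electrons from NADH, all 36 genes had a negative log2 fold change, from -0.91 to -0.13, with a median of -0.50. The 10 that passed the test were 27.8% of the 36, against 3.55% lower of all named genes tested. Every diabetic signal lay below every normal one in 26 of the 36 (72.2%), against 14.9% of all named genes tested and 24.1% of the 361 other bright genes. The reduction was spread over the modules: 3 of 10 N module genes passed (median -0.47), 1 of 5 Q module genes (median -0.52) and 6 of 19 P module genes (median -0.51). The 10 genes were 1.45-fold to 1.88-fold lower in mean signal, with adjusted p values of 0.016 to 0.040. None of the 10 passed in all 6 fits that omitted 1 rat; Ndufa2 missed in 2 of them, and Ndufa6 and Ndufa13 in all 6.

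Among the membrane arm genes, Ndufb8, an accessory subunit often used as a marker of assembled complex I, had signals of 1101, 808 and 1007 in the 3 normal rats and 618, 481 and 454 in the 3 diabetic rats. It was 1.88-fold lower (log2 fold change -0.91, SE 0.18, adjusted p = 0.018 by limma). Ndufc1, a small accessory subunit, read 4434, 4514 and 4305 in normal and 3090.2, 2629 and 2138 in diabetic diaphragm, a 1.69-fold reduction (adjusted p = 0.020). The normal signals of Ndufc1 lay close together, and the diabetic ones spread over a wider range below them.

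Ndufb2, another accessory subunit, had normal signals of 9116, 7959 and 8434 and diabetic signals of 6019, 4734 and 4577, and was 1.66-fold lower (adjusted p = 0.018). The partner of Ndufc1 in the same part of the arm, Ndufc2, read 8957, 7308 and 8602 against 6390.2, 4879.7 and 4463 (1.58-fold lower, adjusted p = 0.040). In both genes diabetic rat 1 had the highest of the diabetic signals. Ndufb10 read 7509, 6628 and 6627 against 4478, 3966 and 4911, 1.55-fold lower (adjusted p = 0.025). The signals of Ndufa13, a subunit also known as the cell death regulator GRIM-19, were 8445, 7958 and 8996 against 5968, 5785 and 5760.1, a 1.45-fold reduction (adjusted p = 0.035) with the 3 diabetic rats almost level.

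In the N module as grouped here, which holds the NADH site and most of the iron-sulfur clusters, 3 genes were lower. Ndufa2 had signals of 5729.6, 5527 and 5889.6 in normal and 3789, 3037 and 3665 in diabetic diaphragm, and its mean was reduced 1.63-fold (log2 fold change -0.71, SE 0.14, adjusted p = 0.016). Ndufs1, the largest subunit of the complex, read 8933, 8957 and 8036 against 6032, 5238 and 5491 and was 1.55-fold lower (adjusted p = 0.021). Ndufa6 read 6005, 6293 and 5778 against 4210.4, 3904 and 4365, a 1.45-fold reduction (adjusted p = 0.038). The groups stood well apart for all 3 genes. By contrast, Ndufs6, needed for a late step of assembly, had overlapping signals of 12930.2, 10703 and 9440.4 against 9594, 9287 and 11135 (log2 fold change -0.13, adjusted p = 0.66), the value nearest 0 in the complex.

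The flavoprotein subunits did not pass. Ndufv1, which binds NADH and FMN, read 8852, 6919 and 6701 in normal and 6071, 4996 and 4979.8 in diabetic diaphragm (log2 fold change -0.48, adjusted p = 0.10). Ndufv3 read 4663, 4234 and 3700.2 against 3270.4, 2174 and 2686 (-0.65, adjusted p = 0.056), and a second, dim probe set of this gene, with group means of 166 and 178, gave 0.10 (adjusted p = 0.81). The 2 probe sets of Ndufv3 thus differed in sign.

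In the Q module, Ndufs3, a core subunit, had signals of 11174, 9040.0 and 10708 in normal and 7262, 6131 and 5525 in diabetic diaphragm, and was 1.63-fold lower (adjusted p = 0.022). Ndufs8, which carries iron-sulfur clusters, read 4921, 3619 and 5083 against 3249.8, 3148 and 2019.9 (log2 fold change -0.71, adjusted p = 0.073). Its groups did not overlap, but normal rat 2 and diabetic rat 3 were each well below the others of their group. Ndufa11 and Ndufb6, of the membrane arm, also had large differences that did not pass, with log2 fold changes of -0.73 (adjusted p = 0.051) and -0.68 (adjusted p = 0.067).

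Other probe sets were shared by a complex I gene and a close copy and were kept out of the counts. The one shared by Ndufs5 and a pseudogene read 6366, 7265 and 6542 in normal and 4122, 3336 and 3424 in diabetic diaphragm (log2 fold change -0.89, adjusted p = 0.0066), and the one shared by Ndufa10 and its copy gave -0.57 (adjusted p = 0.042). Both were lower, and how their signal divides between the copies is unknown. Ndufa4, named as a complex I gene but now placed in complex IV, read 13759, 12681 and 13131 against 12128, 9889 and 12524 (-0.20, adjusted p = 0.41). Counting it with complex IV gave medians of -0.51 for complex I and -0.20 for complex IV.

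**Figure D2:**
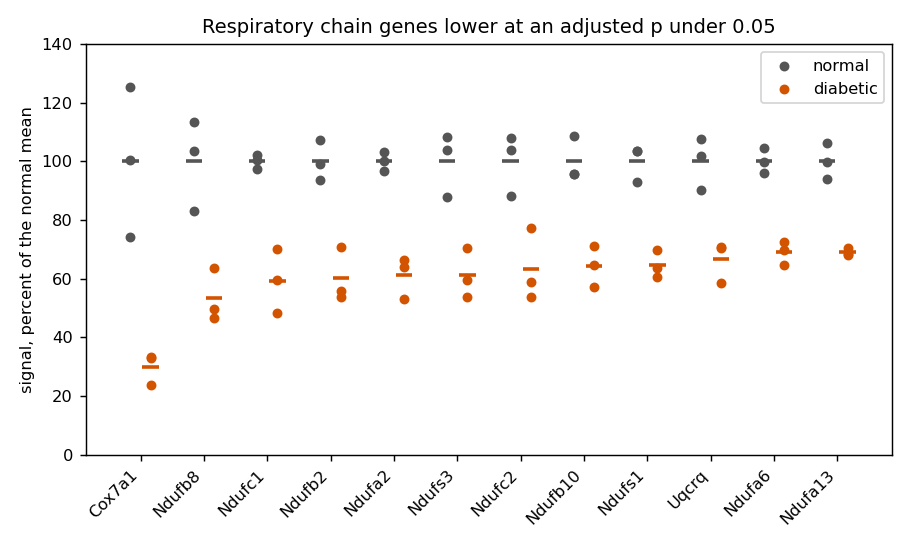
Signal of the 12 respiratory chain genes that passed the test, as a percent of the gene's normal mean, with 1 point for each rat and bars for the mean of each group (3 rats). The diabetic points lay below the normal points in every gene, with the widest gap for Cox7a1.

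In complex III, which oxidizes ubiquinol, all 8 genes had a negative log2 fold change, from -0.59 to -0.28, with a median of -0.39. Every diabetic signal lay below every normal one in 7 of the 8, against 14.9% of all named genes and 24.1% of the 361 other bright genes. At an unadjusted p under 0.05, 5 of the 8 were lower, against 11.9% of all named genes. Only Uqcrq, a small subunit bound near cytochrome b, passed the test (12.5%, against 3.55% lower of all named genes and 7.76% of the other bright genes). Its signals were 13684, 11489 and 12961 in normal and 9012, 7425 and 8936 in diabetic diaphragm, a 1.5-fold reduction (log2 fold change -0.59, SE 0.14, adjusted p = 0.035). The adjusted p of Uqcrq was 0.052 to 0.12 with 1 array left out.

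The catalytic and core subunits of complex III did not pass, with log2 fold changes of -0.54 to -0.28. Uqcrc1, a core protein, read 13888, 10880.3 and 11275 in normal and 9505, 7357 and 7941 in diabetic diaphragm (log2 fold change -0.54, adjusted p = 0.066). Cytochrome c1, encoded by Cyc1, read 9078, 7622 and 10462 against 7462, 5509 and 7082 (-0.44, adjusted p = 0.15). Neither gene overlapped between groups, although the gap between the nearest rats was small for Cyc1. The other core protein, Uqcrc2, read 16156, 14339 and 13504 against 13159, 10768 and 12341 (-0.28, adjusted p = 0.25), also without overlap. Uqcrh, the hinge protein, read 9788, 9284 and 9697 against 7594, 6466 and 7761 (-0.40, adjusted p = 0.10), and the iron-sulfur protein Uqcrfs1 read 14741, 12971 and 13891 against 12384, 9621 and 12504 (-0.28, adjusted p = 0.28). A probe set shared by Uqcrb, a small subunit, and a copy gave -0.27 (adjusted p = 0.26). Cytochrome c itself (Cycs), the mobile carrier between complexes III and IV, was seen only through 2 probe sets shared with its copies, with log2 fold changes of -0.47 (adjusted p = 0.085) and -0.44 (adjusted p = 0.14).

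Complex IV held both the gene with the largest difference and the median nearest 0. Its median log2 fold change was -0.19 over 15 tested genes, and 14 were negative. Every diabetic signal lay below every normal one in 7 of the 15 (46.7%), against 14.9% of all named genes and 24.1% of the 361 other bright genes. At an unadjusted p under 0.05, 5 of the 15 were lower, against 11.9% of all named genes. Cox7a1, the muscle form of a small subunit, was the only one to pass (6.67%, against 3.55% lower of all named genes and 7.76% of the other bright genes). It had signals of 867, 1080.2 and 640.4 in the normal rats and 286, 204 and 283 in the diabetic rats, so that the lowest normal signal was still above the highest diabetic one by a wide gap. The mean signal fell 3.35-fold (log2 fold change -1.73, SE 0.22, adjusted p = 0.0026). The gene passed in all 6 fits that omitted 1 rat, with an adjusted p of 0.0017 to 0.012.

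Of the single-form subunits of complex IV, 0 of 5 passed by limma. At an unadjusted p under 0.05, 2 were lower, against 11.9% of all named genes. Cox5b, which binds zinc, read 18313, 14106 and 15942 in normal and 9581, 10424 and 13139 in diabetic diaphragm (log2 fold change -0.55, adjusted p = 0.070). Cox7b read 19021, 16735 and 16929.5 against 12918, 12099 and 12983 (-0.47, adjusted p = 0.053). Both genes had separate groups, while Cox6c and Cox7c, with -0.18 each, overlapped. The probe set of Cox5a alone was dim, at 216, 249 and 201 against 197, 182 and 244 (-0.10, adjusted p = 0.81), and a bright probe set shared with an uncharacterized locus gave -0.25 (adjusted p = 0.36). Cox7a2l read 2037, 2111 and 1856 against 2080.2, 2587 and 3259 (0.38, adjusted p = 0.23), with diabetic rat 3 the highest. The rule also took in Cox6c-ps1, annotated as a pseudogene, at a mean of 186 in normal and 133 in diabetic diaphragm (-0.46, adjusted p = 0.26).

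The muscle forms of complex IV were compared with their ubiquitous partners. None of the 4 pairs measured passed a test of the ratio, which this number of arrays could not have passed. For each pair the log2 ratio of the special form to the ubiquitous form was taken on each array, and its mean was compared between groups with a 2-sided exact permutation test, in which 3 against 3 arrays cannot give a p below 0.1. For subunit 7a the ratio of Cox7a1 to Cox7a2, the latter read from a probe set shared with a copy, was -4.73, -4.29 and -5.02 in normal and -6.01, -6.28 and -6.19 in diabetic diaphragm. The difference was -1.48 (95% interval from the pooled SD -2.11 to -0.85, exact p = 0.1, adjusted p = 0.4 over 4 pairs), and the groups did not overlap. Cox7a2 itself read 23073, 21160 and 20769 against 18425, 15868 and 20679, with a log2 fold change of -0.25 (adjusted p = 0.31). The level of one probe set cannot be set against another, so a ratio carries meaning only as a difference between groups.

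For subunit 6a, Cox6a2, the muscle form, read 23381, 17664 and 20835 in normal and 18168, 16486 and 20465 in diabetic diaphragm (log2 fold change -0.16, adjusted p = 0.56). Its ubiquitous partner Cox6a1 read 1637, 1389.9 and 1483 against 1212, 1212 and 1034 (-0.38, adjusted p = 0.16). The Cox6a1 groups stood apart and the Cox6a2 groups overlapped, and the ratio differed by 0.22 (95% interval -0.25 to 0.69, exact p = 0.3).

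For subunit 8, Cox8b, the muscle form, read 20079.6, 16333 and 15924 in normal and 15499, 12712 and 21008 in diabetic diaphragm (log2 fold change -0.11, adjusted p = 0.77). Diabetic rat 3 had the highest Cox8b signal of all 6 and diabetic rat 2 the lowest, and the sign of the log2 fold change turned to 0.06 without diabetic rat 2. Cox8a, the ubiquitous form, read 5890.0, 4606 and 5433 against 5017, 4787 and 4095 (-0.19, adjusted p = 0.48). The ratio for this subunit differed by 0.08, with a wide 95% interval of -0.75 to 0.91 (exact p = 0.9).

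Among the remaining pairs, Cox4i2, the lung form of subunit 4, read 194, 145 and 136 against 119.9, 100.4 and 118 (log2 fold change -0.48, adjusted p = 0.26), close to the filter. Cox4i1, the ubiquitous form, read 16775, 16721 and 18148 against 17818, 15298 and 12972 (-0.18, adjusted p = 0.51). Their ratio differed by -0.30 (95% interval -0.96 to 0.36, exact p = 0.3). Cox6b1, the ubiquitous form of subunit 6b, read 13476, 12644 and 13012 against 10359, 9019 and 11216 (-0.36, adjusted p = 0.14), and its testis form Cox6b2 lay below the filter with means of 50.5 and 43.4. Whether the difference for subunit 7a exceeded those of the other pairs was not tested.

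**Figure D3:**
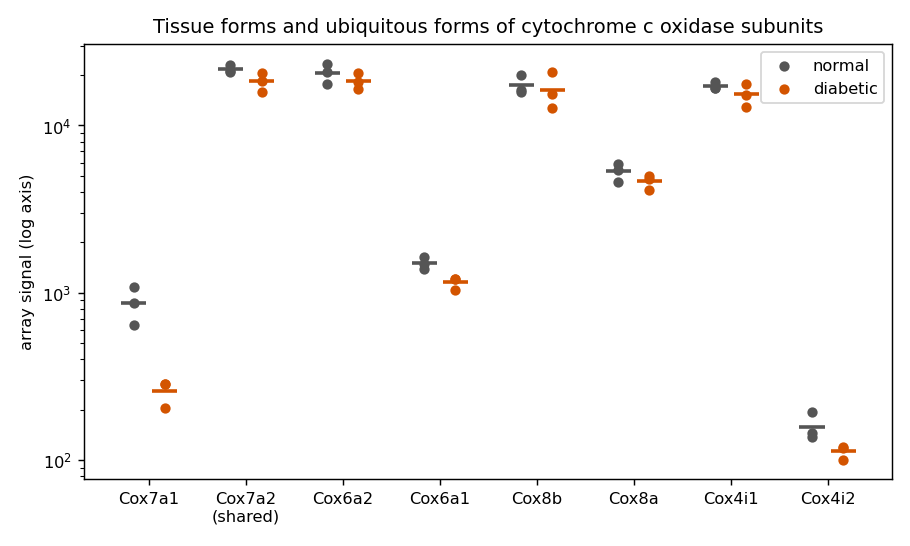
Signal (log axis) of the tissue forms and the ubiquitous forms of complex IV subunits, with 1 point for each rat and bars for group means (3 rats each). Cox7a1 fell while Cox6a2 and Cox8b overlapped between groups; levels of different genes are not comparable because their probe sets differ.

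In complex V, the ATP synthase, 0 of the 16 genes passed the test by limma. At an unadjusted p under 0.05, 8 were lower and 1 was higher, against 11.9% lower and 12.8% higher of all named genes. Every diabetic signal lay below every normal one in 9 of the 16, against 14.9% of all named genes and 24.1% of the 361 other bright genes. The median log2 fold change was -0.35, and 15 of the 16 were negative. By part of the enzyme, the medians were -0.27 for 5 genes of the F1 head and central stalk, -0.34 for 4 of the peripheral stalk and -0.38 for 5 membrane subunits, and Atp5mc3, the only c ring gene with a probe set of its own, had -0.39 (adjusted p = 0.14). Of the other c ring genes, seen through probe sets shared with copies, Atp5mc1 gave -0.27 (adjusted p = 0.31) and Atp5mc2 gave -0.05 (adjusted p = 0.94), and both overlapped between groups.

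Atp5me, a membrane subunit, read 4964, 4849.9 and 3788 in normal and 3475, 2477 and 2693 in diabetic diaphragm (log2 fold change -0.66, adjusted p = 0.052), the lowest value of the complex. Atp5pf, of the peripheral stalk, read 9813, 9822 and 10174 against 8739, 5113 and 6299.5 (-0.60, adjusted p = 0.084). The normal rats were tightly grouped for Atp5pf, and diabetic rat 1 lay nearest to them. In the F1 part, the central stalk gene Atp5f1c read 25056, 19354 and 21872 against 17518, 14078 and 14847 (-0.51, adjusted p = 0.067), with no overlap.

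The subunits that carry the catalytic sites showed smaller differences with overlapping groups. Atp5f1a (alpha) read 25352, 18187 and 19165 in normal and 20372, 14800.3 and 16832 in diabetic diaphragm (log2 fold change -0.27, adjusted p = 0.38), and Atp5f1b (beta) read 21800.3, 20804 and 21176 against 16184, 16894 and 20839 (-0.25, adjusted p = 0.30). Atp5if1, which blocks ATP hydrolysis by the enzyme when the membrane loses its potential, ran the other way: it read 1056, 929.9 and 1045 in normal and 1311, 1314 and 1535 in diabetic diaphragm. All 3 diabetic signals lay above the normal ones, and the mean was 1.37-fold higher (log2 fold change 0.46, SE 0.15), but the adjusted p was 0.099. The 2 other probe sets of Atp5if1 lay below the filter and were not tested.

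On each array, the deviation of every gene from its own mean over the 6 arrays was taken on the log2 scale, and the median over the genes of a complex was compared. For the 75 genes it was 0.31, 0.12 and 0.18 in the normal rats and -0.10, -0.35 and -0.20 in the diabetic rats, so every diabetic rat lay below every normal rat. The same held in each complex. The normal and diabetic means were 0.23 ± 0.11 and -0.24 ± 0.13 (SD, n = 3) for complex I and 0.19 ± 0.07 and -0.19 ± 0.20 (SD, n = 3) for complex III. They were 0.16 ± 0.09 and -0.17 ± 0.09 (SD, n = 3) for complex IV and 0.15 ± 0.06 and -0.16 ± 0.16 (SD, n = 3) for complex V. The differences were -0.47, -0.37, -0.33 and -0.31 for complexes I, III, IV and V, so by this measure complex IV was not nearer 0 than complex V.

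The diabetic rats differed among themselves by complex. Diabetic rat 2 was the lowest of the 6 for 51 of the 75 genes, including 8 of 8 in complex III and 13 of 16 in complex V, while diabetic rat 3 was the lowest for 19, of which 15 were complex I genes. In diabetic rat 3 the median deviation was -0.28 for complex I but -0.11, -0.12 and -0.04 for complexes III, IV and V. Normal rat 1 was the highest of the 6 for 48 genes. The shares of all named genes that were lowest or highest on each array were not taken, so these counts have no reference.

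The arrays themselves also differed. The median deviation of the 361 other bright genes was -0.09 in diabetic rat 2 and 0.09 in diabetic rat 3, against -0.02 to 0.07 in the normal rats. Relative to those genes, the 75 respiratory chain genes had 0.24, 0.14 and 0.18 in the normal rats and -0.10, -0.26 and -0.29 in the diabetic rats. The groups thus remained apart with that reference, but diabetic rat 3 and not diabetic rat 2 was then the lowest. Bacterial transcripts spiked into the hybridization mixture had a median level of 1.96 relative to the mean of the arrays in diabetic rat 3 and 0.833 to 0.889 in the others, and their part in the results was not tested. Without diabetic rat 3 the medians were -0.49, -0.43, -0.31 and -0.39 for complexes I, III, IV and V.

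**Figure D4:**
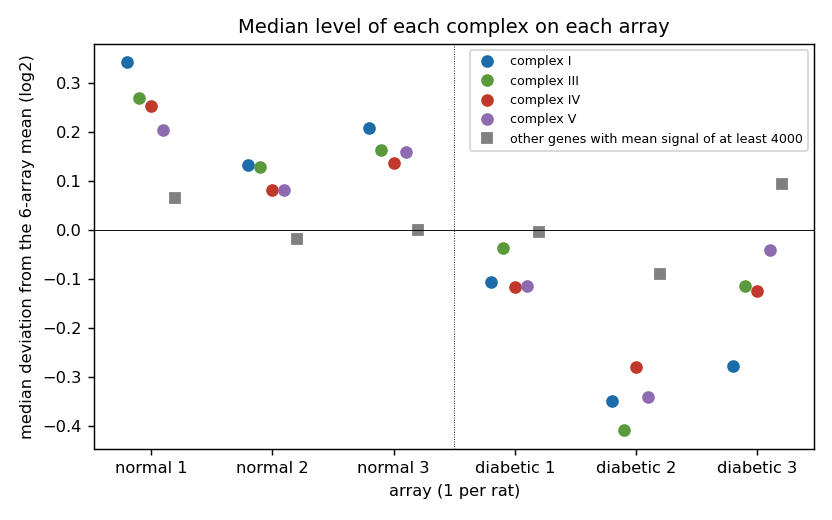
Median deviation (log2) of the genes of each complex from their mean over the 6 arrays, with 1 point for each complex on each rat's array and grey squares for the 361 other bright genes. Every complex lay above 0 in the normal rats and below 0 in the diabetic rats, and complex I stood apart from the others in diabetic rat 3.

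The complexes differed in how bright their genes were on the array, with median signals of 6593 for complex I, 10363 for complex III, 11621 for complex IV and 13348 for complex V. Across the 75 genes, brighter genes tended to have smaller differences (Pearson r = 0.20 and Spearman rho = 0.41 between log2 fold change and mean signal, over genes that share the same 6 arrays). The 24 genes with a mean signal of at least 12000 had a median of -0.27 and 0 passed (9 had an unadjusted p under 0.05), while the 30 genes between 5000 and 12000 had a median of -0.47 and 8 passed. Other named genes had medians of 0.03 and -0.01 in the ranges 5000 to 12000 and 12000 or more. Within 5000 to 12000, the medians were -0.51 for 20 complex I genes, -0.42 for 6 complex III genes and -0.46 for 3 complex V genes, and complex IV had 1 gene, Cox6b1. Whether the complexes differed at equal signal was not tested.

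**Figure D5:**
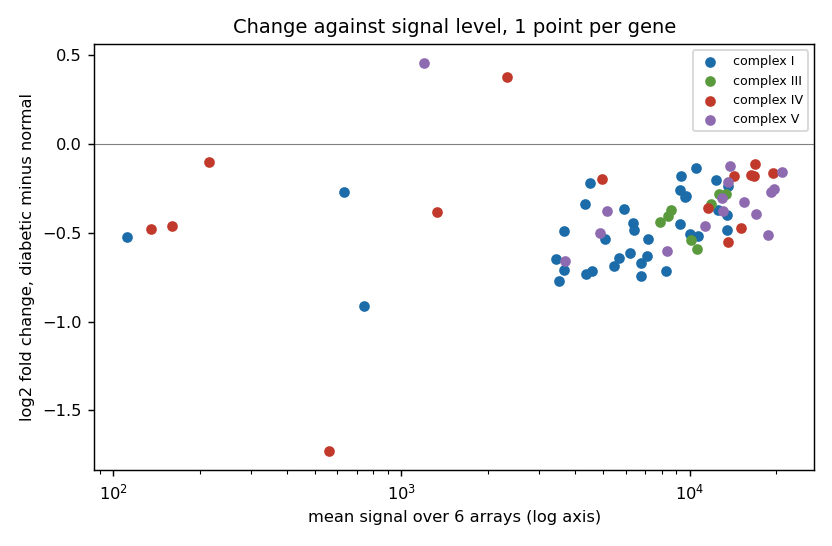
Log2 fold change (diabetic minus normal) against mean signal over the 6 arrays (log axis), with 1 point for each of the 75 tested genes, colored by complex. The 24 genes with a signal of at least 12000 lay nearer 0, with a median of -0.27, than the 30 genes between 5000 and 12000, with a median of -0.47.

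Further sets of genes belong to the same pathway. Complex II, which feeds electrons from succinate and is encoded wholly in the nucleus, had 0 of 4 genes passing by limma, with a median log2 fold change of -0.35. At an unadjusted p under 0.05, 2 were lower, against 11.9% of all named genes. Sdhd, a membrane anchor, read 10633, 9157 and 9957 in normal and 8241, 6333 and 6945 in diabetic diaphragm (-0.47, adjusted p = 0.082), and Sdhb, which carries its iron-sulfur clusters, overlapped (-0.21, adjusted p = 0.47).

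Assembly factors, which build the complexes but are not part of them, had 38 genes tested, of which 1 was lower and 1 was higher (2.63% each way, no more than the 3.55% and 3.46% of all named genes), with a median of -0.37. At an unadjusted p under 0.05, 16 were lower and 2 were higher, against 11.9% lower and 12.8% higher of all named genes. Cox19, a copper-related factor for complex IV, read 794, 889 and 1001 in normal and 583, 602 and 505 in diabetic diaphragm, 1.59-fold lower (adjusted p = 0.037). Coa7, another complex IV factor, was dim, at 72.3, 64 and 16.6 against 207, 172 and 165 (log2 fold change 2.08, adjusted p = 0.037). Every normal signal of Coa7 lay below the filter of 105.8. It was tested only because its diabetic signals raised its mean to 116, so its call is no support for a rise. The summed signal of the assembly factors was 43914 to 46806 in the normal rats and 32221 to 40685 in the diabetic rats.

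Markers of the cells in the tissue were read beside these results. Of 14 skeletal muscle markers, 13 had a probe set of their own. All 13 were above the filter, and their median log2 fold change was -0.10. Their summed signal was 315297, 273187 and 321034 in normal and 258923, 232344 and 327396 in diabetic diaphragm. The groups overlapped: diabetic rat 3 had the highest sum of all, while the sums of diabetic rats 1 and 2 lay below all 3 normal sums. Myoglobin (Mb), the oxygen store of oxidative fibers, was the only one of the 13 to pass, with a log2 fold change of -0.56 (adjusted p = 0.039). That is 7.69%, against 3.55% lower of all named genes. Mb, Actn3 and Tnnt3 had an unadjusted p under 0.05, all 3 with a negative value, against 11.9% lower of all named genes. Endothelial markers had sums of 3755 to 3953 against 4173 to 4630. Among the 6 tested, Kdr was higher and Tie1 lower (16.7% each way, against 3.46% higher and 3.55% lower of all named genes). The mean of Kdr was 1002 in normal and 1581 in diabetic diaphragm, and that of Tie1 was 532 and 318. Pecam1, Vwf, Eng and Emcn overlapped between groups. By limma, macrophage markers had 0 of 6 passing and sums of 2206 to 2464 against 2189 to 3390. Adipocyte markers had 0 of 4 passing, and of the brown adipocyte markers Cidea was higher (log2 fold change 2.08, adjusted p = 0.0011) while Ucp1 and Dio2 lay below the filter. Red cell markers had 0 of 2 passing, nerve markers 0 of 3, and none of the liver markers exceeded the filter. At an unadjusted p under 0.05, 1 endothelial marker was lower and 1 was higher. The macrophage, adipocyte, red cell and nerve lists had 0, 0, 0 and 1 gene at that threshold. The shares of all named genes were 11.9% lower and 12.8% higher. The part of these cell types in the respiratory chain results was not tested.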

How the data were processed

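Total RNA from 6 diaphragms was hybridized to Affymetrix rat expression arrays, and the deposited values are signal intensities per probe set, made by the authors with MAS5 (MAS 5.0 in the methods), which averages the probe pairs of a probe set and scales each array. Median signals were 167.6 to 180.8 per array. The number of arrays limits the precision. The authors' own test (BAM) and detection calls were not used here.

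Signals under 1 were set to 1 (136 values) and taken to log2. Of 15923 probe sets, 57 controls were left out, and 9519 with a mean signal above the 40th percentile (105.8) were tested with limma 3.58.1 (lmFit, eBayes with a trended prior, R 4.3.3), with Benjamini-Hochberg adjustment over all of them. Folds are ratios of group mean signals. The annotation of the array gave 12783 probe sets to 1 gene each, and a gene was represented by its brightest such probe set. The group of a rat came from its title. Members and lists were chosen with earlier results of these data known. Genes named were those passing the test, both forms of each isoform pair, the 3 largest rises and falls per complex among the rest, and reference subunits fixed with the lists. Genes outside this rule are also given, among them Ndufs6, Uqcrc2, Cox6c, Cox7c, Cox6c-ps1, Atp5mc3, Sdhb and Sdhd. Of these, Ndufs6 was picked for having the smallest difference in complex I. Isoform ratios were compared by exact permutation (scipy 1.17.1). The limma script was tested on simulated data. Alternatives were another normalization, offset, filter, variance prior, array weights, a replicate block, averaged probe sets, other thresholds and each array left out.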

Additional observations from a re-analysis of the deposited data

How the results depend on the processing

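In the 16 alternative fits the order of the complexes by median log2 fold change stayed I, III, V, IV, but among genes with a signal of 5000 to 12000 complex V (-0.46) came before III (-0.42), and by the medians on each array IV (-0.33) came before V (-0.31). In the fits all but 2 or 3 genes were below 0. The number of lower genes, 12 as reported, was 20 with array weights, 19 with quantile normalization, 7 with scaling to the same median, 6 with no filter and 5 with no trend in the variance prior. It was 26 at an adjusted p under 0.1 and 42 at an unadjusted p under 0.05, where 1 gene, Atp5if1, was higher in place of 0. Leaving out 1 array gave 1 (without normal rat 1 or diabetic rat 2) to 13 lower genes (without diabetic rat 1, 8 of them among the 12). Replicate numbers did not pair the rats (correlations of 0.10, -0.20 and -0.07 between rats of the same number), and with the replicate number as a block 6 genes were lower, all 6 among the 12. The complex IV median, -0.19, was -0.31 to -0.19 with 1 array left out, and -0.36 for the 1 gene with a signal of 5000 to 12000, an alternative added after the data were seen. The log2 fold change of Cox8b turned to 0.0566 (adjusted p = 0.89) without diabetic rat 2. The isoform differences kept their sign for subunits 7a (-1.65 to -1.26), 6a (0.06 to 0.33) and 4 (-0.45 to -0.13), while that of subunit 8 ranged from -0.20 to 0.28. The cause was not tested for any of these. Leaving Cycs out of complex III could not be run, since Cycs had no probe set of its own. Of the results for single genes over the alternatives, 522 kept direction and side of the threshold, 72 lost the call, 27 gained it and 1 changed sign. All 72 losses fell on the 12 genes called, since only these could lose a call. Cox7a1 kept its call in all 16 alternative fits, while Ndufa13, Ndufa6 and Uqcrq each lost it in 10.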
